A study of Mus musculus with 6 samples.

Results

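The transcripts described here are those of the Argonaute family and of the GW182 family, the proteins that carry out silencing by small RNAs. Members were chosen by gene name alone, as every probe that the array assigns to Ago1, Ago2, Ago3 or Ago4 (named Eif2c1 to Eif2c4 on older designs) or to Tnrc6a, Tnrc6b or Tnrc6c. This gave 7 genes of the 34755 on the array and 11 probes of the 55627 that were kept. Ago2 had 3 probes, Ago1 and Ago4 had 2 each, and the other genes had 1 each.

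An Argonaute protein holds a miRNA and uses it to find partly complementary transcripts. AGO2 is the only mouse Argonaute with well-established slicing activity, and AGO1, AGO3 and AGO4 act mainly through bound partners. The GW182 proteins, encoded by Tnrc6a, Tnrc6b and Tnrc6c, are those partners: they bind Argonaute through GW repeats and recruit the deadenylases that shorten the poly(A) tail of the target. Dicer cuts the miRNA precursors, so cells without it have few mature miRNAs to load.

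Macrophages were grown for 7 days in L929-conditioned medium from femoral bone marrow of mice aged 6 to 8 weeks. Dicer KO cells came from LysM-Cre/Dicer flox/flox/Apoe-/- mice and Dicer WT cells from LysM-Cre/Dicer wt/wt/Apoe-/- mice, so by the labels Cre, which LysM drives in myeloid cells, and the Apoe mutation were common to both genotypes. From each genotype RNA was taken after precipitation with a monoclonal antibody to AGO2 (AGO2-RIP), after precipitation with control IgG (IgG-RIP), both with 7 hours on beads, and before precipitation from the cleared lysate (input). Each of the 6 RNAs went to 1 Agilent array labelled with Cy3. There was thus 1 array per group and no replicate, and the sources used here do not give how many animals a culture came from. A difference between 2 arrays has no test, and "2-fold" below is a size only.

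The labels give males throughout, but the arrays went against this for WT. The Y-linked genes Ddx3y and Eif2s3y passed the background flag on all 3 KO arrays and on none of the WT arrays (0 of 3). Xist, which female cells express from their inactive X, passed it on 0 of the 3 KO arrays and on all 3 WT arrays. KO arrays also lay in slide row 1 and WT arrays in row 2. Genotype, sex and slide row cannot be told apart in any KO and WT difference. The Dicer1 probe read -0.55 log2 in KO input and 0.22 in WT input, but the labels do not say which exons were floxed, so it checks neither the deletion nor the labels. The Apoe probe was well above background on all 6 arrays (-0.83 to 1.20), and the labels do not say which part of Apoe the mutation removes. Lyz2, the gene at the LysM-Cre locus, differed widely between the genotypes that share this label. It read 3.56 in KO and -4.30 in WT AGO2-RIP, 4.11 in KO and -1.16 in WT IgG-RIP, and 5.66 in KO and -2.19 in WT input, and was not well above background in WT AGO2-RIP and WT input. The Lyz2 locus therefore adds to what KO and WT differences cannot be told apart from. Of 8 macrophage markers, Lyz2 included, 7 or 8 were well above background on each array. Markers of neutrophils, T cells, B cells, erythroid cells, fibroblasts and osteoclasts were mostly dim, with 0 to 2 per list above background. The WT IgG-RIP array had the highest summed intensity of the erythroid (169, against 14.6 to 32.8 on the other arrays) and osteoclast markers (114, against 12.4 to 53.8). The part of other cells in the IgG-RIP differences of WT was not tested. Fewer cells of a type and less RNA per cell cannot be told apart in such bulk RNA.

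All values below are log2 signals, the log2 of the background-corrected intensity minus that of the array's 75th percentile, so 0 marks the 75th percentile of that array. On each array 37.6% to 46.3% of the 59305 non-control spots passed the flag for signal well above background, and no spot was saturated (0 on each). Errors given with a value are the scanner error, from the error model of the scanning software. It covers only the reading of the spot, and leaves out culture, precipitation and amplification. Repeated spots of a probe scattered by 0.14 to 0.17 log2 (root mean square SD). A probe counted as measured between 2 arrays if both of its spots passed the background flag. Where it was dim on 1 of them, the difference is given as a bound ("at least"), except for Ago3 against WT input. There the dim value itself was used, so the difference is not a minimum.

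The probes are 60 bases long. In mm9 coordinates, Ago1 probe 1 lies at chr4:126117202-126117261 and Ago1 probe 2 at chr4:126112644-126112703, which is 4558 bases further 3′ on the minus strand. The Ago3 probe lies at chr4:126032332-126032391, and the Ago4 probes at chr4:126169537-126169596 and chr4:126167162-126167221, all on the minus strand, so 3 Argonaute genes form a cluster. The 3 Ago2 probes follow the minus strand of chromosome 15 at 72936863 to 72936922, at 72935705 to 72935764 and at 72928888 to 72928947. The last of these was designed on a cDNA clone and lies 6817 bases 3′ of its neighbour. Tnrc6a lies at chr7:130338627-130338686, Tnrc6b at chr15:80759793-80759852 and Tnrc6c at chr11:117624691-117624750, all on the plus strand. The files do not say which exon or UTR a probe is in. The 3 probes printed here carry results on Ago1, Ago3 and Tnrc6b. Each has at least 1 open reading frame, as other member probes do, which does not establish that it lies in coding sequence. The cDNA was cut with Alu I (AGCT) and Rsa I (GTAC) before labelling, and capitals mark the sites of these enzymes.
Ago1 probe 1: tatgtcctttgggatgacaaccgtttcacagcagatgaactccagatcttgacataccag
Ago3: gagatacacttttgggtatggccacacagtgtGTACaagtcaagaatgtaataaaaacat
Tnrc6b: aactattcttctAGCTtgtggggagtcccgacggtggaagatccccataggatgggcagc
The Tnrc6a probe held 2 Alu I sites, the Tnrc6b probe 1 Alu I site and the Ago3 probe 1 Rsa I site, while the other 8 probes held neither. Both motifs read the same on either strand, and they do not overlap in these probes. Of all probes on the array, 34.9% held at least 1 of the sites, 24.8% that of Alu I and 12.9% that of Rsa I. Probes with and without a site had AGO2-RIP minus IgG-RIP medians of -0.18 and -0.19 in KO and of -0.19 and -0.25 in WT.

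The GW182 transcripts had more signal with the AGO2 antibody than with IgG or before precipitation in both genotypes, Tnrc6a most clearly. In KO, Tnrc6c over both references and Tnrc6b over input were under 2-fold. The AGO2-RIP signal of Tnrc6a was 3.0-fold that of IgG-RIP in KO and 7.94-fold in WT. These sizes moved with the scaling, with log2 values from 1.44 to 1.73 in KO and from 2.49 to 3.29 in WT. Against IgG-RIP, Ago3 was the opposite case, with an AGO2-RIP signal 4.26-fold below in KO and 3.84-fold below in WT. With normexp background correction these log2 differences were -1.10 and -1.12. Over input Ago3 was lower in KO, but higher in WT against a dim spot. Ago1 lay below input in KO and above it in WT, a contrast with no test, and the 3 probes of Ago2, the precipitated protein's own transcript, did not give the same sign.

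Tnrc6a encodes the GW182 protein first named from cytoplasmic GW bodies. Its AGO2-RIP signal was 2.49 ± 0.14 in KO and 3.16 ± 0.14 in WT (scanner error), its IgG-RIP signal 0.91 ± 0.15 in KO and 0.18 ± 0.16 in WT, and its input signal 0.38 ± 0.15 in KO and -0.95 ± 0.22 in WT. Both AGO2-RIP arrays thus lay above the other 4, an order whose share over all probes was not counted. AGO2-RIP minus IgG-RIP was 1.59 ± 0.21 in KO and 2.99 ± 0.22 in WT, at percentiles 95.6 and 97.4 of all measured probes. AGO2-RIP minus input was 2.11 ± 0.21 in KO and 4.11 ± 0.26 in WT. The WT value is a 17.3-fold difference and lay at percentile 99.8. In the order of the 6 arrays, WT AGO2-RIP was followed by KO AGO2-RIP, KO IgG-RIP, KO input, WT IgG-RIP and WT input, and of these neighbours KO input and WT IgG-RIP were within scanner error of each other.

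Tnrc6b, whose protein also bridges Argonaute to the deadenylase complexes, was dimmer on its probe. It read -0.42 ± 0.16 in KO and -1.11 ± 0.18 in WT AGO2-RIP, was not well above background in IgG-RIP of either genotype (-2.22 in KO and -3.79 in WT), and read -1.06 ± 0.18 in KO input but was not well above background in WT input (-3.60). AGO2-RIP was therefore at least 3.45-fold above IgG-RIP in KO and at least 2.01-fold in WT. Over input the difference was 0.64 ± 0.24 in KO, and the signal was at least 2.57-fold higher in WT. The KO value lay at percentile 78.2 of all measured probes and ran from 0.14 to 1.19 with the scaling.

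Tnrc6c, the third mammalian paralog, was measured on all 6 arrays. Its AGO2-RIP signal was -0.48 ± 0.16 in KO and 0.41 ± 0.15 in WT, its IgG-RIP signal -1.07 ± 0.21 in KO and -0.63 ± 0.18 in WT, and its input signal -1.17 ± 0.19 in KO and -1.77 ± 0.30 in WT. Within each genotype AGO2-RIP was the highest of the fractions, but KO AGO2-RIP and WT IgG-RIP were within scanner error. AGO2-RIP minus IgG-RIP was 0.59 ± 0.26 in KO and 1.05 ± 0.24 in WT. Over input these were 0.69 ± 0.25 in KO and 2.19 ± 0.34 in WT, the WT value being 4.55-fold. The KO values lay at percentiles 80.9 over IgG-RIP and 79.3 over input. With the scaling they ran from 0.19 to 0.64 and from 0.18 to 1.24, and the WT value over input from 1.03 to 2.54.

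**Figure D1:**
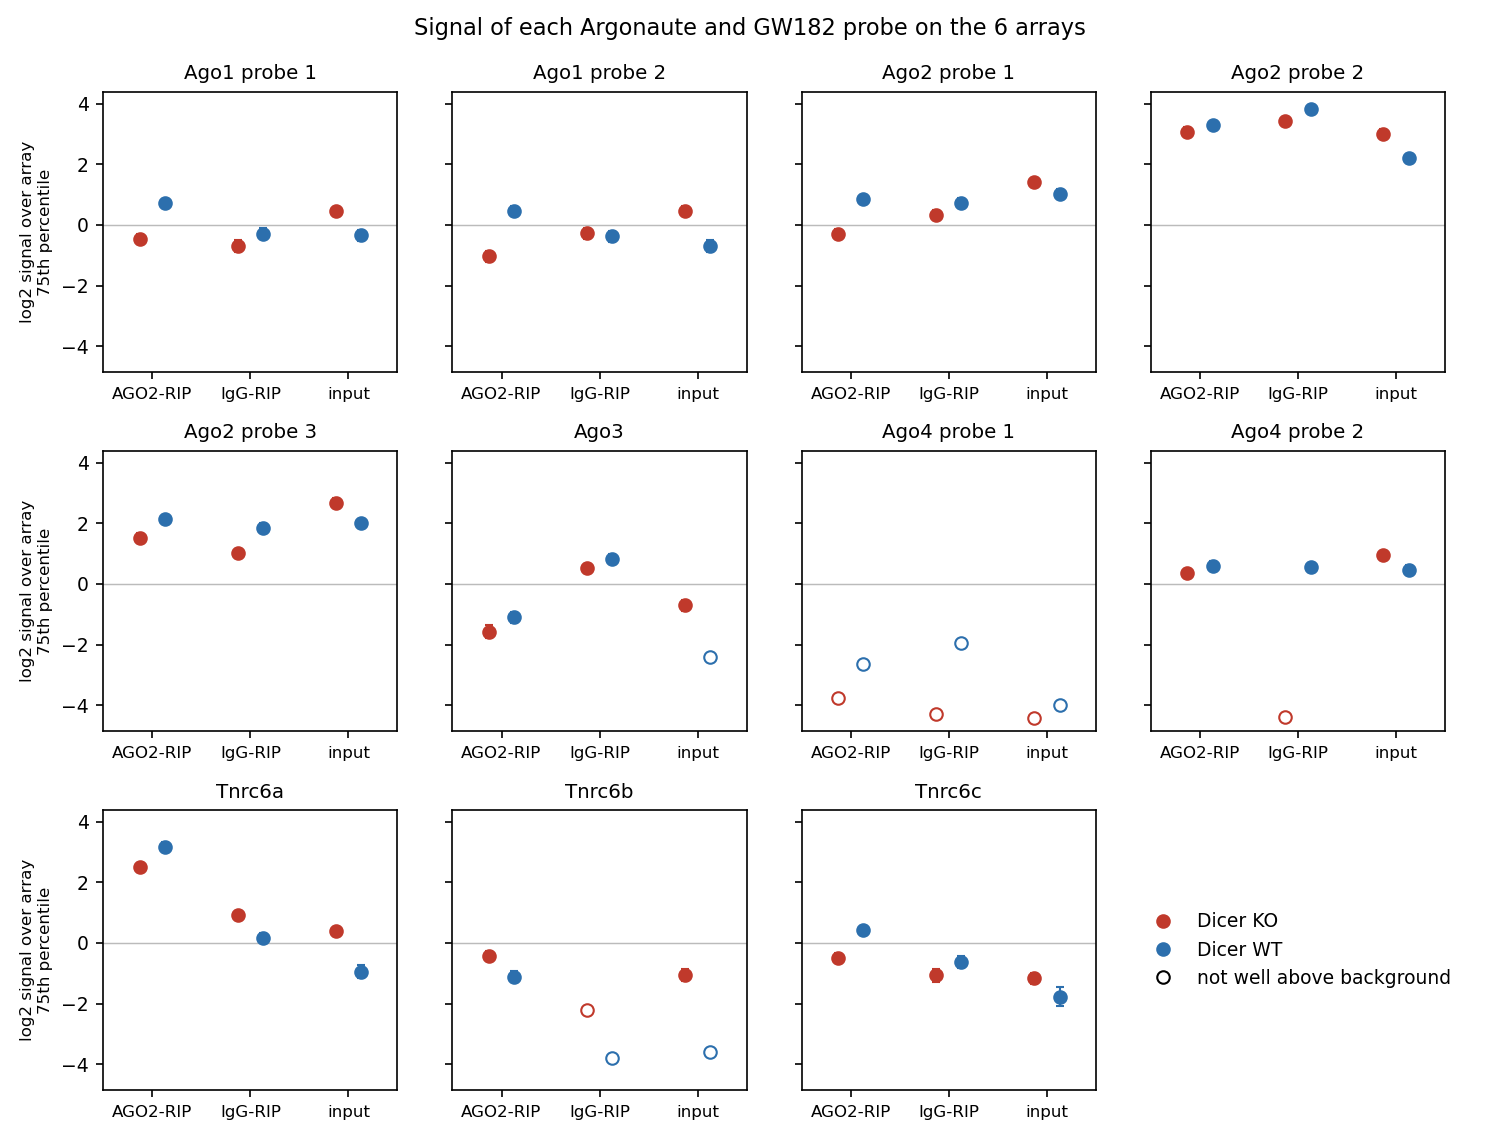
Log2 signal over the array's 75th percentile (vertical axis) of each of the 11 probes on the 6 arrays, by RNA fraction (horizontal axis), with 1 point per array, Dicer KO in red beside Dicer WT in blue, and bars for the scanner error where well above background (open points were not). Tnrc6a stands at 2.49 in KO and 3.16 in WT AGO2-RIP, above its other 4 points. Ago3 stands at 0.51 in KO and 0.83 in WT IgG-RIP, above its other 4 points. The share of all probes with such an order was not counted.

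Ago1 encodes an Argonaute that silences without slicing. Its probe 1 read -0.47 ± 0.16 in KO and 0.72 ± 0.15 in WT AGO2-RIP, -0.70 ± 0.19 in KO and -0.29 ± 0.17 in WT IgG-RIP, and 0.45 ± 0.15 in KO and -0.34 ± 0.18 in WT input. Probe 2 read -1.03 ± 0.18 in KO and 0.47 ± 0.15 in WT AGO2-RIP, -0.28 ± 0.17 in KO and -0.38 ± 0.17 in WT IgG-RIP, and 0.47 ± 0.15 in KO and -0.71 ± 0.20 in WT input. On both probes WT AGO2-RIP and KO input were the highest arrays, and KO AGO2-RIP lay below KO input. AGO2-RIP minus IgG-RIP was 0.23 ± 0.25 in KO and 1.00 ± 0.23 in WT on probe 1, and -0.75 ± 0.25 in KO and 0.85 ± 0.23 in WT on probe 2. Over input, the differences were -0.91 ± 0.22 in KO and 1.05 ± 0.23 in WT on probe 1, and -1.50 ± 0.24 in KO and 1.18 ± 0.25 in WT on probe 2. The 2 probes, although 4558 bases apart, thus had the same sign against input within each genotype, below input in KO and above it in WT. In KO they differed in sign against IgG-RIP, where probe 1 was within its scanner error of 0.

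Ago2 encodes the protein that the antibody bound. On probe 2 its AGO2-RIP signal was 3.07 ± 0.14 in KO and 3.29 ± 0.14 in WT, its IgG-RIP signal 3.43 ± 0.14 in KO and 3.82 ± 0.14 in WT, and its input signal 3.01 ± 0.14 in KO and 2.20 ± 0.15 in WT. Probe 3 gave 1.52 ± 0.15 in KO and 2.14 ± 0.14 in WT AGO2-RIP, 1.00 ± 0.15 in KO and 1.85 ± 0.15 in WT IgG-RIP, and 2.68 ± 0.14 in KO and 2.0 ± 0.15 in WT input. On probe 1 the readings were -0.31 ± 0.16 in KO and 0.84 ± 0.15 in WT AGO2-RIP, 0.33 ± 0.16 in KO and 0.72 ± 0.15 in WT IgG-RIP, and 1.41 ± 0.15 in KO and 1.03 ± 0.15 in WT input. The IgG-RIP arrays were the highest for probe 2, whereas KO input was the highest for probes 1 and 3.

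These Ago2 probes disagreed on the precipitate. AGO2-RIP minus IgG-RIP was -0.64 ± 0.23 in KO and 0.12 ± 0.21 in WT on probe 1, and -0.35 ± 0.20 in KO and -0.52 ± 0.20 in WT on probe 2. It was 0.51 ± 0.21 in KO and 0.29 ± 0.21 in WT on probe 3. None of these 6 differences reached 2-fold, and the WT values of probes 1 and 3 turned below 0 when the 75th percentile was taken over probes detected on all arrays (-0.29 and -0.12). AGO2-RIP minus input was -1.71 ± 0.22 in KO and -0.19 ± 0.21 in WT on probe 1, 0.07 ± 0.20 in KO and 1.09 ± 0.20 in WT on probe 2, and -1.16 ± 0.21 in KO and 0.14 ± 0.21 in WT on probe 3. The WT values of probes 1 and 3 and the KO value of probe 2 changed sign with the scaling, with lowest and highest values of -0.47 and 0.16, of -0.14 and 0.50, and of -0.44 and 0.62. The range over the 3 probes was 1.15 in KO and 0.81 in WT over IgG-RIP, against median ranges of 0.70 and 0.81 over the genes with 2 or more measured probes. Over input it was 1.78 in KO and 1.28 in WT, against medians of 0.75 and 0.64. A range grows with the number of probes, and these medians were not matched to genes with 3 probes. The Ago1 probes differed by 0.98 in KO and 0.16 in WT over IgG-RIP and by 0.59 and 0.12 over input. Probes of opposite sign were found for 43.3% of genes with 2 or more measured probes in KO and 35.2% in WT over IgG-RIP. Over input these shares were 33.8% in KO and 28.9% in WT.

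Ago3, whose gene neighbours Ago1, had its highest signal in IgG-RIP. It read -1.58 ± 0.21 in KO and -1.11 ± 0.18 in WT AGO2-RIP, 0.51 ± 0.15 in KO and 0.83 ± 0.15 in WT IgG-RIP, and -0.71 ± 0.17 in KO input, and was not well above background in WT input (-2.41). No 2 neighbours in the order of these 5 measured arrays were within scanner error. AGO2-RIP minus IgG-RIP was -2.09 ± 0.26 in KO and -1.94 ± 0.23 in WT, at percentiles 1.61 and 4.03. With the scaling these ran from -2.26 to -1.10 and from -2.35 to -1.12, smallest in size with normexp background correction. Over input the difference was -0.87 ± 0.27 in KO. In WT it was 1.31 ± 0.47 against a dim input spot, a plain difference and not a minimum. Ago3 thus lay below control IgG in both genotypes, on the only probe it has.

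Ago4 encodes the fourth family member. Its probe 1 was not well above background on any of the 6 arrays (-4.44 to -1.94) and gives no comparison. Probe 2 read 0.36 ± 0.15 in KO and 0.60 ± 0.15 in WT AGO2-RIP, 0.55 ± 0.15 in WT IgG-RIP, and 0.95 ± 0.15 in KO and 0.47 ± 0.16 in WT input, but -4.39 and not well above background in KO IgG-RIP. The other 5 arrays lay within 0.59 of each other, so the KO IgG-RIP array stood apart. AGO2-RIP was at least 5.91-fold above IgG-RIP in KO, and the difference was 0.06 ± 0.21 in WT, where it turned to -0.35 with the percentile over detected probes. Over input it was -0.59 ± 0.21 in KO and 0.14 ± 0.21 in WT, the WT value falling to -0.14 with arrays centred on the median.

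Counted over the 11 probes, the members past 2-fold over IgG-RIP in KO were near the share of all probes. Over IgG-RIP 8 were measured in KO, with 1 at least 2-fold higher (Tnrc6a) and 1 lower (Ago3), against a background of 10.8% higher and 10.9% lower of 21421 measured probes. In WT 9 were measured, with 3 higher (Ago1 probe 1, Tnrc6a and Tnrc6c) and 1 lower (Ago3), against 20.1% and 22.5% of 20613 probes. Ago4 probe 2 and Tnrc6b in KO and Tnrc6b in WT were higher by bounds only, each resting on a dim IgG-RIP spot. They are left out of these counts, since the backgrounds hold measured probes only. The median of the measured members was -0.06 in KO and 0.29 in WT, against -0.19 and -0.24 over all probes. With normexp, and with the percentile over detected probes, WT had 1 higher (Tnrc6a) and 1 lower (Ago3). With normexp background correction the KO background was 6.15% higher and 3.31% lower. In WT it was 25.9% and 13.9% with arrays centred on the median, 16.2% and 7.88% with normexp, and 14.0% and 37.2% with the percentile over detected probes.

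Over input, 10 member probes were measured in KO, with 1 at least 2-fold higher (Tnrc6a) and 3 lower (Ago1 probe 2 and Ago2 probes 1 and 3), against 14.3% higher and 27.1% lower of 20794 probes. In WT 8 were measured, with 5 higher (both Ago1 probes, Ago2 probe 2, Tnrc6a and Tnrc6c) and 0 lower, against 14.4% and 26.7% of 19444 probes. Tnrc6b by a bound and Ago3 by a plain difference were also higher in WT. Each rests on a dim input spot, and both are left out of these counts as well. In KO the balance turned with the scaling, to 3 higher (the 3 Tnrc6 genes) and 1 lower (Ago2 probe 1) with the percentile over detected probes, 1 higher and 6 lower with arrays centred on the median, and 1 and 1 with normexp. In WT it was 2 higher with median centring and 3 with normexp, with 0 lower in both. Members' medians were -0.73 in KO and 1.07 in WT, against -0.27 over all probes in each genotype. Centred on the median, the backgrounds were 7.61% higher and 42.4% lower in KO and 10.1% and 35% in WT. With the percentile over detected probes they were 26.8% and 14.0% in KO and 21.6% and 18.7% in WT. With normexp they were 8.04% and 17.8% in KO and 10.4% and 16.4% in WT. The comparisons over IgG-RIP and over input share the AGO2-RIP arrays.

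**Figure D2:**
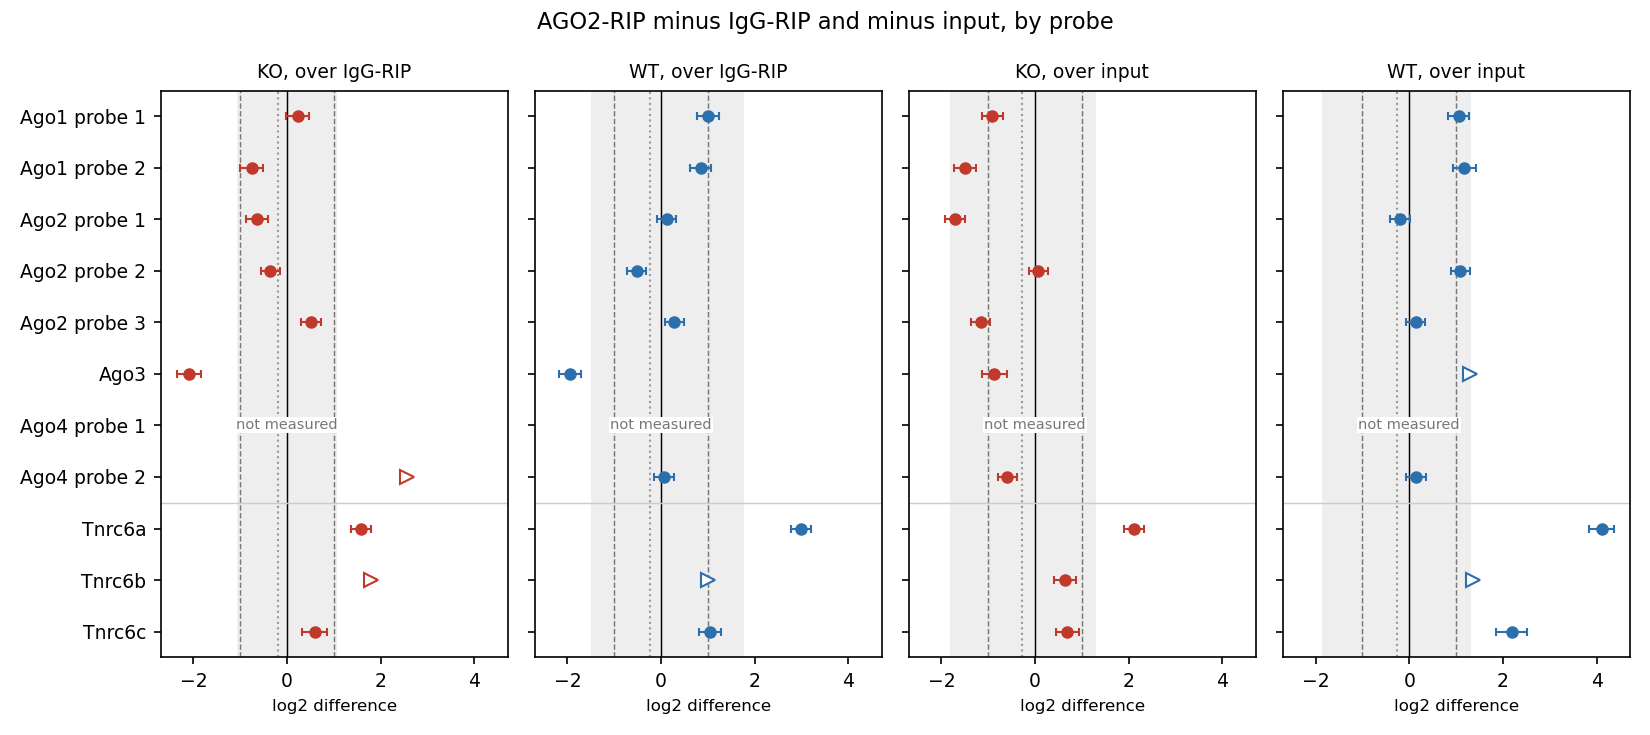
Log2 difference of AGO2-RIP minus IgG-RIP (left pair of panels) and minus input (right pair) in Dicer KO and Dicer WT for each member probe, 1 array against 1 array. Bars are the scanner error, and open triangles are lower bounds (a plain difference for Ago3 in WT over input). Grey bands span the 10th to 90th percentile of all measured probes, dotted lines mark their median and dashed lines 2-fold. Tnrc6a lies to the right of the band in all 4 panels (1.59, 2.99, 2.11 and 4.11), and Ago3 to its left over IgG-RIP (-2.09 and -1.94).

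A test was possible only over both genotypes, with the KO and WT arrays as the 2 samples of each fraction. No member passed it (0 of 10 tested), while 3 of the 10 had an unadjusted p under 0.05 over IgG-RIP, against 17.8% of all probes, and 3 over input, against 31.4%. In limma's fit over 26873 probes, Tnrc6a was 2.29 ± 0.60 (SE, n = 2 arrays per fraction) higher with the AGO2 antibody than with IgG, with an adjusted p of 0.169, and higher on 2 of 2 arrays. Tnrc6b was 2.24 ± 0.56 higher, a value that rests on dim IgG-RIP spots (limma adjusted p of 0.160), and the difference of Ago3 was -2.02 ± 0.66 (limma adjusted p of 0.227). Of all probes 0 passed at an adjusted p of 0.05 (0% higher and 0% lower), while 4793 had an unadjusted p under 0.05. Over input Tnrc6a was 3.11 ± 0.60 higher, with a limma adjusted p of 0.0508. For Tnrc6c the difference was 1.44 ± 0.52 (limma adjusted p of 0.134) and for Tnrc6b 1.56 ± 0.56 (limma adjusted p of 0.135). The Tnrc6b value rests on a dim WT input spot, and its lowest value over the other fits was 0.43. Over all probes 2.77% were higher and 2.92% lower than input at that threshold. Among the 16249 probes above background on all 6 arrays, the limma adjusted p of Tnrc6a was 0.0445 over IgG-RIP and 0.00506 over input. That of Tnrc6c over input was 0.0442. Of these probes 4.38% passed at that threshold over IgG-RIP and 28.2% over input. In limma's fit over 26873 probes, Argonaute probes other than Ago3 had adjusted p-values of 0.383 to 0.974 over IgG-RIP. All Argonaute probes had values of 0.268 to 0.946 over input. The fit removes a shift between KO and WT that the 3 fractions share, and its error comes from what then remains and from the spread of the other probes.

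Between the genotypes, every measured member stood higher in KO than in WT input. The 8 measured probes had differences of 0.37 to 1.33, with 2 at least 2-fold higher and 0 lower, against 1.25% higher and 1.75% lower of 19879 probes. All 8 were above 0, against 43.1% of those probes, and their median was 0.73, against -0.07. These 8 probes are of 5 genes and were read from the same 2 arrays, so they are not independent. The largest was Tnrc6a at 1.33 ± 0.27, with 0.38 in KO and -0.95 in WT. Ago1 probe 2 followed at 1.17 ± 0.25, with 0.47 in KO and -0.71 in WT, and its probe 1 gave 0.78 ± 0.23.

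For Ago2, the KO minus WT input differences were 0.37 ± 0.21 on probe 1, 0.81 ± 0.20 on probe 2 and 0.69 ± 0.21 on probe 3, all of 1 sign. Ago4 probe 2 gave 0.48 ± 0.21 and Tnrc6c 0.60 ± 0.36. Tnrc6b was at least 2.68-fold higher in KO input, and Ago3 was higher by a plain difference of 1.70 ± 0.47, not a minimum. Neither was well above background in WT input. The 8 measured values lay at percentiles 85.7 to 99.6 of all probes and stayed above 0 in each of the 4 other scalings. None reached 2-fold with normexp, where that of Tnrc6a was 0.69. Under normexp 0.297% of all probes were higher and 0.287% lower, and with the percentile over detected probes 1.85% and 1.36%. The silencing partners listed below had 0 of 33 measured members past 2-fold in this comparison, against 1.02% higher and 1.73% lower of all genes.

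In AGO2-RIP most members were instead lower in KO. There 9 of 10 measured probes were lower in KO than in WT, with 0 at least 2-fold higher and 3 lower, against 7.97% higher and 11.4% lower of 22570 probes (48.1% of which were above 0). The 3 were Ago1 probe 1 (-1.18 ± 0.22), Ago1 probe 2 (-1.50 ± 0.23) and Ago2 probe 1 (-1.15 ± 0.22). With normexp 0 of them stayed past 2-fold, and with the percentile over detected probes 1 did, Ago1 probe 2 (-1.21). Tnrc6c was -0.90 ± 0.22, Tnrc6a -0.67 ± 0.20, Ago2 probe 3 -0.62 ± 0.21 and Ago3 -0.47 ± 0.28. Ago2 probe 2 (-0.22 ± 0.20) and Ago4 probe 2 (-0.25 ± 0.21) turned above 0 with the percentile over detected probes, as Ago2 probe 2 also did with quantile normalization. Of the 10, which are probes of 7 genes read from the same 2 arrays, Tnrc6b alone was higher in KO, by 0.69 ± 0.24. Backgrounds were 5.28% higher and 16.6% lower with arrays centred on the median, 2.27% and 5.81% with normexp, and 14.2% and 5.98% with the percentile over detected probes.

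In IgG-RIP no measured member was 2-fold apart between the genotypes. The count was 0 of 8 probes, against 11.7% higher and 9.9% lower of 20138 probes, and the values ran from -0.85 ± 0.21 (Ago2 probe 3) to 0.73 ± 0.22 (Tnrc6a). Ago4 probe 2 was at least 6.75-fold lower in KO. Taken as the KO minus WT difference of AGO2-RIP minus IgG-RIP, 8 probes were measured on all 4 arrays, with 0 at least 2-fold higher and 2 lower, against 17.2% and 20.7% of 18734 probes. The 2 were Ago1 probe 2 (-1.60 ± 0.34) and Tnrc6a (-1.40 ± 0.30), and the count was 1 lower with normexp and 4 with median centring. The shares of all probes under those settings were not counted. Ago1 probe 1 (-0.77 ± 0.34) and Ago2 probe 1 (-0.76 ± 0.31) followed. Tnrc6c gave -0.46 ± 0.35, while Ago3 (-0.15 ± 0.35), Ago2 probe 2 (0.17 ± 0.29) and Ago2 probe 3 (0.23 ± 0.29) were within scanner error of 0 and changed sign with the scaling. These differences reuse the arrays of the comparisons above.

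**Figure D3:**
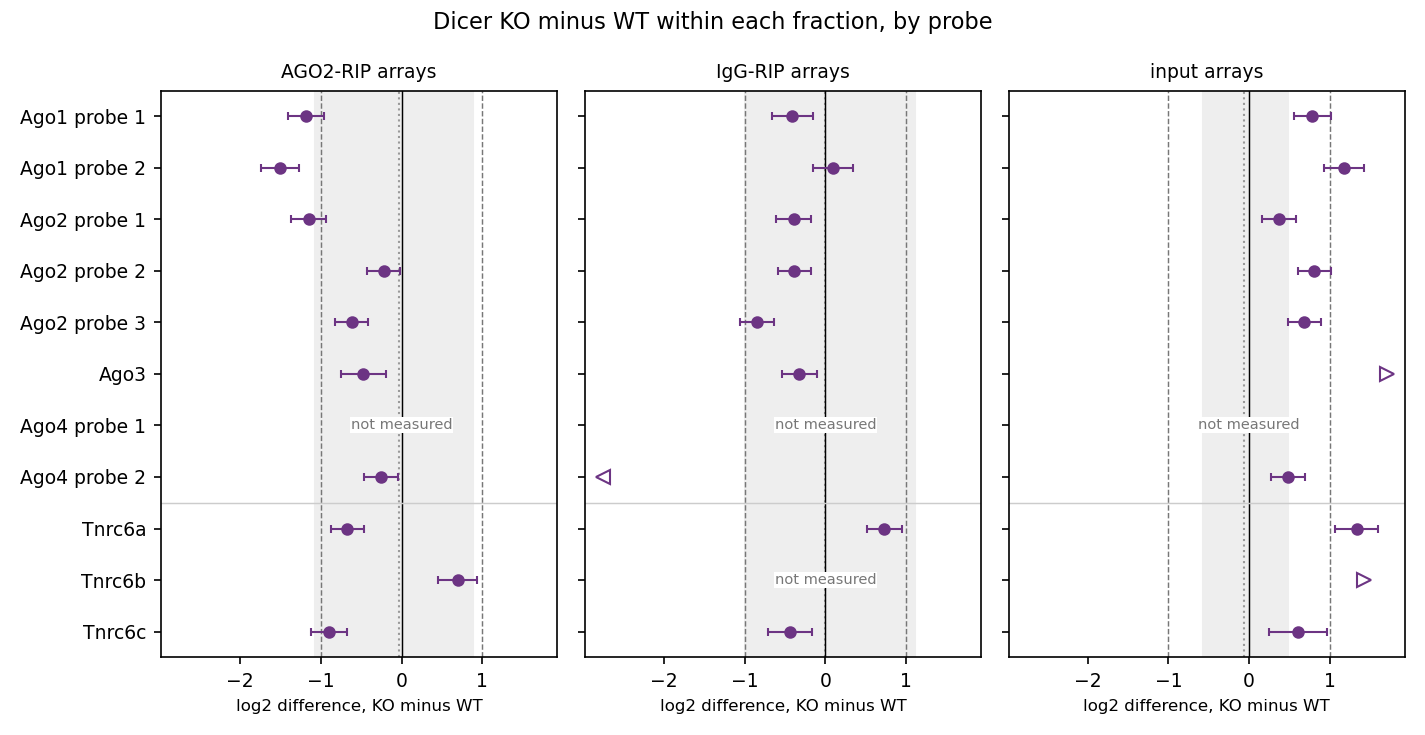
Log2 difference of Dicer KO minus Dicer WT for each member probe in AGO2-RIP, IgG-RIP and input, 1 array against 1 array. Bars are scanner errors, and open triangles are bounds (a plain difference for Ago3 in input). The grey band spans the 10th to 90th percentile of all measured probes, with their median dotted and 2-fold dashed. In input the measured probes lie at 0.37 to 1.33, and in AGO2-RIP 9 of 10 lie below 0, down to -1.50 for Ago1 probe 2.

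Base composition moved with the precipitate. AGO2-RIP minus IgG-RIP had a median of 0.14 over probes of 35% to under 45% GC and of -0.40 over those of 45% to under 55%, against -0.05 and -0.26 in KO. The Tnrc6a probe has 41.7% GC and Tnrc6c 35%, and both lay above the first of these medians, as Ago3 with 36.7% GC lay below it. Ago1 probe 1 has 45% GC and probe 2 35%, and their differences were 0.23 and -0.75 in KO, against the direction of the medians, and 1.00 and 0.85 in WT. Ago2 probe 2, with 53.3%, has more GC than probe 1 (45%) and probe 3 (35%), and its difference was the lowest of the 3 in WT (-0.52), whereas in KO that of probe 1 was the lowest (-0.64). The part of base composition in these values was not tested.

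The proteins that act with these families were looked at through lists chosen with results of these data known, with each gene given by its brightest probe. The silencing partners are 39 genes, mostly of deadenylation, decapping and translational repression, with a few other proteins that bind or act on Argonaute complexes, such as Ipo8, Snd1 and Zswim8. Over IgG-RIP, 2 of 32 measured partners were at least 2-fold higher and 2 lower in KO, against 10.5% and 9.92% of all genes, and 15 were higher and 5 lower in WT, against 20.3% and 22.2%. In WT the partners' counts ran from 9 to 18 higher and from 0 to 9 lower over the 5 scalings. Over these the shares of all probes ran from 14.0% to 25.9% higher and from 7.88% to 37.2% lower. Their median was 0.17 in KO and 0.87 in WT, against -0.19 and -0.24 over all genes. In WT the highest were Dcp1a (3.25), a decapping coactivator, Patl1 (3.16), a scaffold of decapping, and Mov10 (2.62), an RNA helicase found with Argonaute, and the lowest was Xrn1 (-1.30), the exonuclease that follows decapping. In KO the highest were Wtip (3.42), a LIM-domain protein, Mov10 (1.52) and Patl1 (0.87), and the lowest Dcp1b (-1.11), Snd1 (-1.05) and Xrn1 (-0.92).

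Over input, 7 of 37 measured partners were at least 2-fold higher and 5 lower in KO, against 14.6% and 26.4% of all genes, and 8 of 34 were higher and 6 lower in WT, against 14.8% and 26.4%. Mov10 led in KO (3.37) and WT (4.65), as Tnrc6a did among the members. It was followed by Dcp1a (1.68) and Zswim8 (1.58) in KO and by Patl1 (2.92) and Dcp1a (2.36) in WT. The lowest were Eif4e2 (-2.28), Pabpc1 (-1.87) and Cnot9 (-1.83) in KO and Cnot9 (-2.06), Pabpc1 (-1.78) and Wtip (-1.42) in WT. Mov10 was the only partner that passed limma's test, 1 of 38 higher over input (adjusted p of 0.0469), against 2.52% higher and 2.98% lower of all genes. Its limma adjusted p was 0.0796 after quantile normalization and 0.0564 with no filter on dim probes, and 0.00307 to 0.0287 in the 5 other fits. Over IgG-RIP 0 of 38 passed, and 9 had an unadjusted p under 0.05 in limma, against 17.1% of all genes, while 7 of 38 did over input, against 31.7%. Between genotypes 1 of 37 partners was at least 2-fold higher in KO than in WT AGO2-RIP and 9 were lower, against 6.89% and 11% of all genes. With the percentile over detected probes 2 were lower, against 5.98% of all probes. Values ran from Ipo8 (1.18), an importin bound by Argonaute, to Limd1 (-2.0), which joins Argonaute to the cap complex.

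The 15 factors that load Argonaute, mostly chaperones, were all measured. Over IgG-RIP 1 was at least 2-fold higher and 0 lower in KO, against 10.5% and 9.92% of all genes. In WT 2 were higher and 0 lower, against 20.3% and 22.2%. With median centring 6 were higher in WT, against 25.9% of all probes. Tarbp2, the double-stranded RNA binding partner of Dicer, was the highest in both (1.44 in KO and 2.89 in WT), and Prkra, a related Dicer partner, was the other in WT (1.58). Over input 0 were higher and 6 lower in KO, against 14.6% and 26.4%, and 1 was higher and 7 lower in WT, against 14.8% and 26.4% (2 to 10 lower in KO and 3 to 9 in WT over the 5 scalings). The lowest were Fkbp4 (-2.35), Hsp90ab1 (-1.67) and Dnajb1 (-1.60) in KO and Dnajb1 (-1.92), Cdc37 (-1.86) and Fkbp4 (-1.57) in WT. None of the 15 passed limma's test at its adjusted p (0 over IgG-RIP and 0 over input), while 1 had an unadjusted p under 0.05 over IgG-RIP and 5 over input, against 17.1% and 31.7% of all genes. Of the germline Argonaute relatives, which bind piRNAs, Piwil1 was well above background on 1 array, Piwil2 on 4 and Piwil4 on 0, and none was measured in AGO2-RIP minus IgG-RIP.

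**Figure D4:**
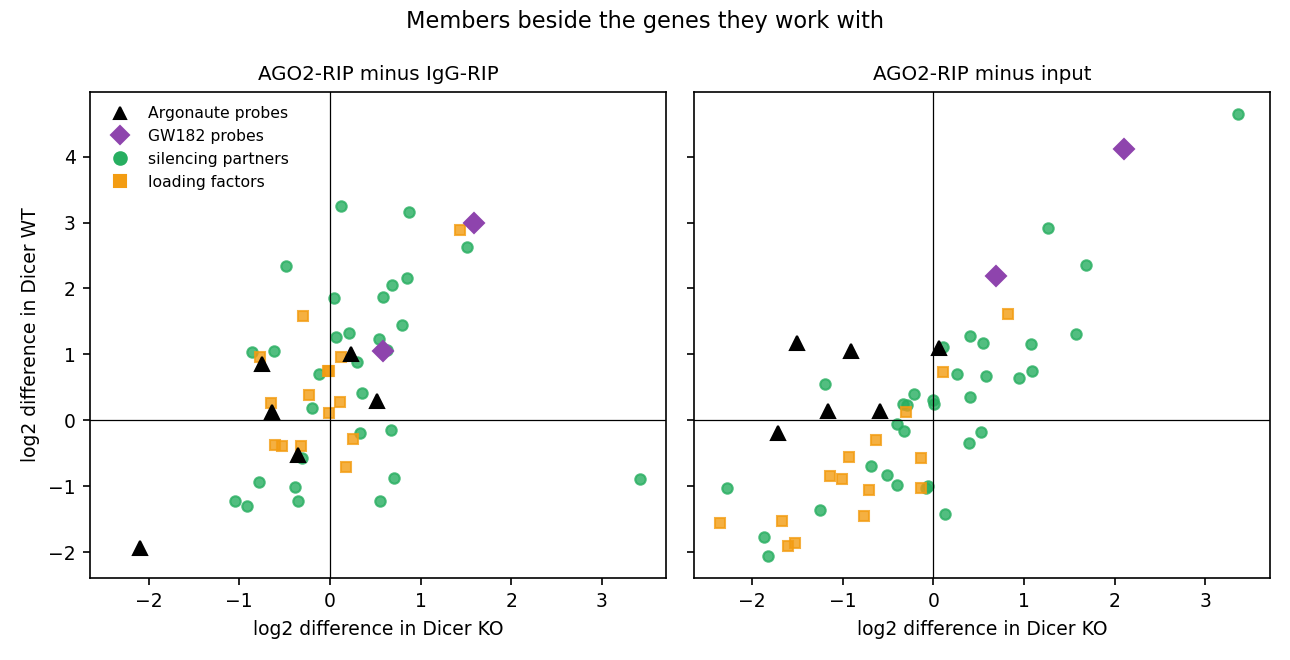
Log2 difference in Dicer KO (horizontal axis) against Dicer WT (vertical axis) of AGO2-RIP minus IgG-RIP (left) and minus input (right), with 1 point per member probe (black triangles for Argonautes, purple diamonds for GW182) and 1 per brightest probe of each silencing partner (green) and loading factor (orange), where measured in both genotypes. Tnrc6a (1.59 in KO, 2.99 in WT) lies near Tarbp2 (1.44, 2.89) on the left and below Mov10 (3.37, 4.65) on the right, and the Argonaute probes over input lie at or below 0.07 in KO.

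Profiles over the 6 arrays, each centred on its mean, were compared with those of 8564 genes above background on all arrays by their root mean square difference. Tnrc6a was most like Cfl2, a cofilin (0.26 log2), and Fbxw7, a ubiquitin ligase subunit (0.27), and less closely matched than the other members. For Tnrc6c these were Bcl9 (0.12), a Wnt coactivator, and Cep135 (0.12), a centrosomal protein. Ago1 probe 1 was most like Nfic (0.14), a transcription factor, and Trap1 (0.21), a mitochondrial chaperone, and Ago2 probe 2 was most like Dock3 (0.15) and Nova1 (0.15), a neuronal splicing factor. Ago3, Ago4 and Tnrc6b were dim on at least 1 array and were not compared.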

How the data were processed

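The deposited files are the scanner output of 6 Agilent 1-colour arrays, read with Agilent Feature Extraction 10.7.3.1 per the submitters' processing notes. The processed signal, per the file headers, is an intensity on a linear scale, with background subtracted, spatial trends removed and a surrogate value for dim spots, and the files also hold its error, the raw mean and background intensities and flags for spots well above background. Nothing was normalized between arrays. Per the labels' protocols, RNA was pre-amplified and 500 ng of cDNA was labelled by random priming, so differences are of relative abundance.

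Each array's log2 intensity, computed from the deposited values, was set against its 75th percentile. Spots of 1 probe were averaged, and 54 probes with an outlier spot were dropped. Names were updated through a RefSeq table (GRCm38.p6, names only), with 27634 probes matched by accession, 3399 by symbol, 320 by synonym and 24274 left as on the array, and coordinates are those of the files (mm9). A bound sets the bright value against the dim array, at the dim value itself or at the lowest spot there that passed the background flag, whichever was higher. For 1 value per gene the brightest probe was taken. limma 3.58.1 (R 4.3.3, fraction plus genotype, all 6 arrays, two-sided, Benjamini-Hochberg adjustment) tested 26873 probes above background on at least 2 arrays and was tested on simulated data. Nothing says whether the arrays come from separate cultures, so p-values measure the spread between these samples only. Other steps used Python 3.11.15, numpy 2.4.6 and pandas 2.3.3.

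The members and lists were chosen with earlier results of these data known. Every member probe is named, with up to 3 highest and 3 lowest genes of each list and the 2 genes of most similar profile. Alternatives were other scalings, normexp (offset 50) in place of the background correction, other filters on dim probes, 1 value per gene and other limma fits.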

Additional observations from a re-analysis of the deposited data

Results flagged for a closer look

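Ago1 and Ago3 had differences of opposite sign in the genotypes, in AGO2-RIP minus IgG-RIP or minus input, that each exceeded 2 scanner errors. This rule was applied to the member probes only, so the share of all probes that meet it is not known. Scanner error also leaves out culture, precipitation and amplification. For Ago1, with all arrays above background, this held in 3 contrasts. On probe 2, AGO2-RIP minus IgG-RIP was -0.75 in KO and 0.85 in WT. AGO2-RIP minus input was -0.91 in KO and 1.05 in WT on probe 1, and -1.50 in KO and 1.18 in WT on probe 2. Ago3 over input was -0.87 in KO and 1.31 in WT, the latter a plain difference against an input spot not well above background. Each sign rests on 1 array against 1 array, and the difference between the genotypes was not tested. The 3 Ago1 contrasts share the AGO2-RIP arrays and kept their signs in the 4 other scalings.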

How the results depend on the processing

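Among 276 recomputed differences of single probes between arrays, 154 moved by less than the scanner error and 122 by more. The number of member probes at least 2-fold apart moved with the settings. Over IgG-RIP in KO it was 2, and 4 with no filter on dim probes and 1 with only probes above background on all 6 arrays. In WT it was 4, and 2 with normexp and 2 with the percentile over detected probes. Over input in KO it was 4, and 7 with arrays centred on the median, 2 with normexp and 1 with the brightest probe of each gene. In WT it was 5, and 2 with median centring, 3 with normexp, 8 with no filter and 3 with the median of each gene's probes. For KO minus WT input it was 2, and 0 with normexp, 4 with no filter, and 1 with the brightest probe or the median of probes. For KO minus WT AGO2-RIP it was 3, and 0 with normexp, and 1 with the percentile over detected probes, the brightest probe or the median of probes. For KO minus WT IgG-RIP it was 0, and 3 with no filter. For the difference of differences it was 2, and 4 with median centring, 1 with normexp, 4 with no filter and 1 with the brightest probe. The number of members past limma's adjusted p of 0.05 was 0 over IgG-RIP. It was 1 with only probes above background on all 6 arrays, where 4.38% of all probes passed. Over input it was 0 (5.69% of all probes passed), and 1 with normexp (16.9%) and 2 with that filter (28.2%). It was also 1 with no genotype term (14.0%), 1 with only the 4 arrays compared (19.1%) and 1 with an intensity trend (16.9%). Ago3 over input, 0.22, was -0.031 after quantile normalization and -0.091 after normexp, all with SEs above their size. Over all probes limma's count ran from 0 to 711 over IgG-RIP and from 0 to 5125 over input. Scaling shifted the median of all measured probes. It was -0.24 for AGO2-RIP minus IgG-RIP in WT, and 0.07 with median centring and -0.64 with the percentile over detected probes, while AGO2-RIP minus input was -0.27, -0.77 and 0.28 in KO and -0.27, -0.55 and 0.09 in WT in the same order. The partners' median over IgG-RIP stayed above that of all genes in the 5 scalings, from 0.14 to 0.28 in KO and from 0.46 to 1.17 in WT. Brightest-probe and all-6-array settings hold fewer probes by construction, and the cause of the other changes was not tested. Shares of all probes at least 2-fold apart were not counted under other filters on dim probes. The limma fit already pairs the fractions of a genotype through its genotype term, and the fits with and without it are given above. No replicate could be left out because each group holds 1 array. Dim spots limit Ago4 probe 1 on all arrays, Tnrc6b in the bounds given and Ago3 in its differences from WT input.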

Other observations

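Another probe of the Ago2 locus was not counted as a member, since its name on the array is not that of the gene, although its description gives Ago2. It lies at mm9 chr15:72926367-72926426 on the minus strand, 2521 bases 3′ of Ago2 probe 3, and was chosen after its values were seen. It read 0.68 in KO and 1.36 in WT AGO2-RIP, -0.08 in KO and -0.13 in WT IgG-RIP, and 1.09 in KO and 0.24 in WT input. AGO2-RIP minus IgG-RIP was thus 0.76 in KO and 1.49 in WT, higher than on any of the 3 Ago2 probes in either genotype. AGO2-RIP minus input was -0.40 in KO and 1.12 in WT, and KO minus WT input was 0.85. In limma's fit over both genotypes it was 1.12 higher than IgG-RIP (adjusted p of 0.324) and 0.36 higher than input (adjusted p of 0.667).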
